A study of Drosophila melanogaster with 4 samples.

Results

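The regions described here are the clusters of H3K27me2 enrichment on the 4 autosomal heterochromatin scaffolds of the Drosophila melanogaster genome, 2LHet, 2RHet, 3LHet and 3RHet. They were picked by sequence name alone, as every region typed as enriched on these scaffolds. This gave 569 of 15589 clusters in replicate 1, 770 of 15021 in replicate 2, and 899 of 16862 in a combined list made by the authors from the replicate set. The study ran chromatin immunoprecipitation with sequencing (ChIP-seq) on 2 ChIP samples, using the antibody Ab24684 against histone H3 dimethylated at lysine 27. Each ChIP sample had an input sample of its own, for which no list was used. All 4 samples were nuclei of wild-type Oregon-R-modENCODE larvae of the third instar, harvested from bottles, so a library mixes the tissues of many larvae. The labels name no separate collections for the replicates, and the spread between them may be technical.

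H3K27me2 is made by E(z), the catalytic subunit of Polycomb repressive complex PRC2, which also makes the trimethylated form found at Polycomb-silenced genes. The dimethylated form is known as a broad mark of inactive and intergenic chromatin. Pericentric heterochromatin is known instead for methylation of H3 lysine 9 and for HP1a, and is rich in remnants of transposons. In release 5 of the genome, the Het scaffolds are pericentric sequence assigned to a chromosome arm but kept apart from its main assembly.

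The scaffolds measure 0.369 Mb (2LHet), 3.29 Mb (2RHet), 2.56 Mb (3LHet) and 2.52 Mb (3RHet), which is 8.73 Mb in all. Positions are in FlyBase release 5, the build named in the file headers. No gene positions of that release were used, so clusters are named by position only. Percentages of a scaffold refer to its full length, including assembly gaps and sequence to which no read can be assigned.

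No library depth could be taken from the files, which list regions without reads, so counting error is unknown. Over 2 ChIP samples an exact two-sided permutation of signs reaches no p below 0.5. Differences are therefore given within each replicate, with the SD of the 2 differences. Regions typed as depleted numbered 14 in replicate 1 and 0 in replicate 2, with 30 in the combined list, and 0 of them lay on these scaffolds.

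Clusters of H3K27me2 were found on all 4 scaffolds but filled less of them than of the chromosome arms. They covered 17.7% of the scaffold sequence in replicate 1 and 26.5% in replicate 2, on average 22.1% ± 6.20 (SD, n = 2). The large arms (2L, 2R, 3L, 3R and X) were covered to 43.6% and 37.9%. Set against the arms, the scaffolds differed by -25.9 percentage points in replicate 1 and by -11.4 in replicate 2, which averages -18.6 ± 10.2 (SD of differences, n = 2). The sign was shared, while the size depended on the replicate. In length of sequence, clusters took up 1548 kb, 2313 kb and 2639 kb of the scaffolds in replicate 1, replicate 2 and the combined list.

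All 3 lists ranked the scaffolds alike. 3LHet was covered most, at 20.2% in replicate 1 and 32.7% in replicate 2, with 34.3% in the combined list. 3RHet came next with 19.0%, 25.6% and 31.5%. 2RHet had 15.4%, 23.4% and 27.1%, and 2LHet, the shortest, had 12.7%, 17.1% and 21.5%. Averaged over replicates these values were 26.5% ± 8.88, 22.3% ± 4.66, 19.4% ± 5.63 and 14.9% ± 3.09 (SD, n = 2 each). Neighbours in this order differed in their means by less than the larger of their SDs. Those SDs include the higher coverage of replicate 2 on all 4 scaffolds. They therefore do not measure the spread of a difference between scaffolds within a replicate.

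Cluster density gave the same ranking. 3LHet carried 7.47 clusters per 100 kb in replicate 1 and 10.7 in replicate 2, with 11.4 in the combined list. The values were 6.59, 8.70 and 10.7 for 3RHet, 6.02, 7.75 and 9.40 for 2RHet, and 3.80, 6.24 and 7.86 for 2LHet. Pooled over the scaffolds, density was 6.52 and 8.82 per 100 kb in the replicates, against 12.2 and 11.6 for the large arms. This is a difference of -4.25 ± 2.08 per 100 kb (SD of differences, n = 2).

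The arm ends nearest the centromeres were closer to the scaffolds in coverage. The Mb nearest the centromere on 2L, 2R, 3L and 3R was covered to 27.8% in replicate 1 and 36.3% in replicate 2. The scaffolds differed from it by -10.1 and -9.80 percentage points, on average -9.95 ± 0.212 (SD of differences, n = 2). This difference hardly varied between replicates. How much closer the arm ends were than the whole large arms did vary. Against those arms the scaffolds differed by -25.9 percentage points in replicate 1 but by only -11.4 in replicate 2. Chromosome 4, which is small and largely heterochromatic, was covered to 6.34% and 8.97%, and the scaffolds exceeded it by 14.5 ± 4.34 percentage points (SD of differences, n = 2).

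**Figure D1:**
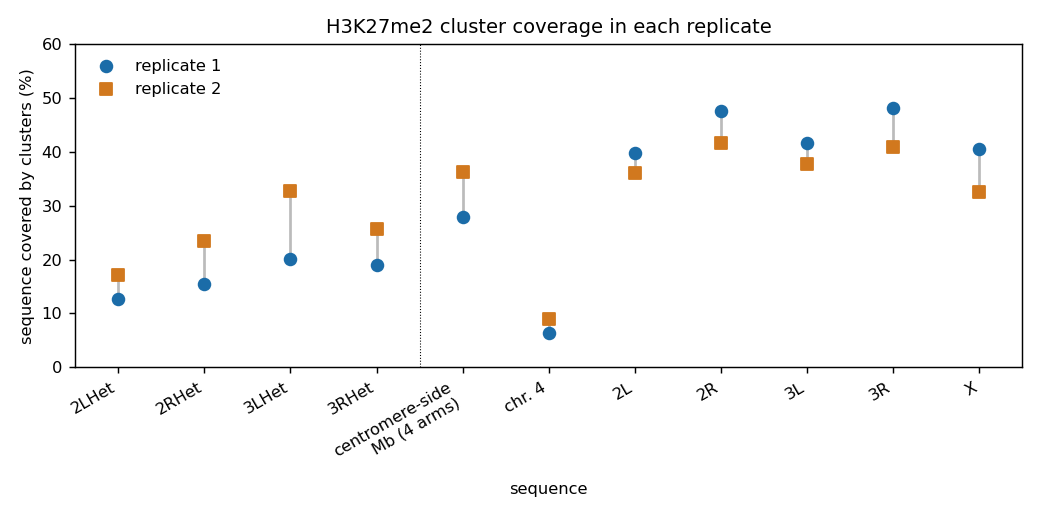
Share of each sequence covered by H3K27me2 clusters (%), with a circle for replicate 1 and a square for replicate 2, and the Het scaffolds left of the dotted line. Replicate 2 is the higher one on the 4 Het scaffolds, the centromere-side Mb and chromosome 4, and the lower one on the 5 large arms.

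Which replicate held more depended on the sequence. Replicate 2 covered more than replicate 1 on 4 of 4 autosomal Het scaffolds, with ratios of 1.34 for 2LHet, 1.35 for 3RHet, 1.52 for 2RHet and 1.62 for 3LHet. It did so on 0 of 5 large arms, whose ratios ran from 0.802 to 0.910. Ratios above 1 were also found for the centromere-side Mb (1.30) and chromosome 4 (1.41), and ratios below 1 for XHet (0.979), YHet (0.731) and the unplaced sequence U (0.949). Over the scaffolds together, replicate 2 listed 1.35 times as many clusters with a mean length 1.10 times as great. The ratio of mean lengths was 1.18 on 2RHet, 1.14 on 3LHet and 1.02 on 3RHet, but 0.818 on 2LHet, which held 14 and 23 clusters. The part of depth or input in this difference was not tested.

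Coverage was patchy along each scaffold. Full bins of 50 kb, 173 in number, ran from 0% to 55.6% in replicate 1 with a median of 16.7%, and from 0% to 77.1% in replicate 2 with a median of 24.6%. Replicate 2 was higher in 133 bins and lower in 30, and 10 bins were empty in both. By the mean of the replicates, 17 bins reached 40% and 35 did not exceed 10%. The replicates followed each other over the bins (Spearman 0.762, Pearson 0.778, n = 173), which share the same 2 libraries and adjoin one another.

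The richest bin of 3LHet was 1400001 to 1450000, covered to 55.6% in replicate 1 and 71.9% in replicate 2. For 2RHet it was 400001 to 450000, at 49.0% and 76.9%. For 3RHet it was 1950001 to 2000000, at 41.2% and 69.5%, and for 2LHet 150001 to 200000, at 34.7% and 39.4%. In 3 of these 4 bins coverage passed 40% in each replicate. The replicates disagreed most in the bin before the richest one of 3RHet, 1900001 to 1950000, with 11.1% in replicate 1 and 51.6% in replicate 2.

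Empty bins were most numerous on 2RHet. Of its 65 full bins 8 were empty in both replicates and 17 had a mean of 10% or less. 3RHet had 2 of 50 empty and 12 at 10% or less. 3LHet had 0 of 51 empty in both and 3 at 10% or less, and its poorest, 100001 to 150000, was covered to 2.88% in replicate 1 and 0% in replicate 2. 2LHet had 0 of 7 empty and 3 at 10% or less, and its poorest, 200001 to 250000, was covered to 3.95% and 8.55%.

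Cut into 3 equal parts from the scaffold start, 2RHet was covered to 18.3%, 15.7% and 12.2% in replicate 1 and to 27.5%, 22.6% and 20.0% in replicate 2, lower with each part in both. 3LHet was covered most in its middle part, with 19.1%, 25.8% and 15.7% in replicate 1 and 30.9%, 39.4% and 28.0% in replicate 2. 2LHet also peaked in the middle in both replicates, at 17.4% and 25.7%. 3RHet was more even, with 16.8% to 20.6% in replicate 1 and 24.3% to 26.3% in replicate 2.

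**Figure D2:**
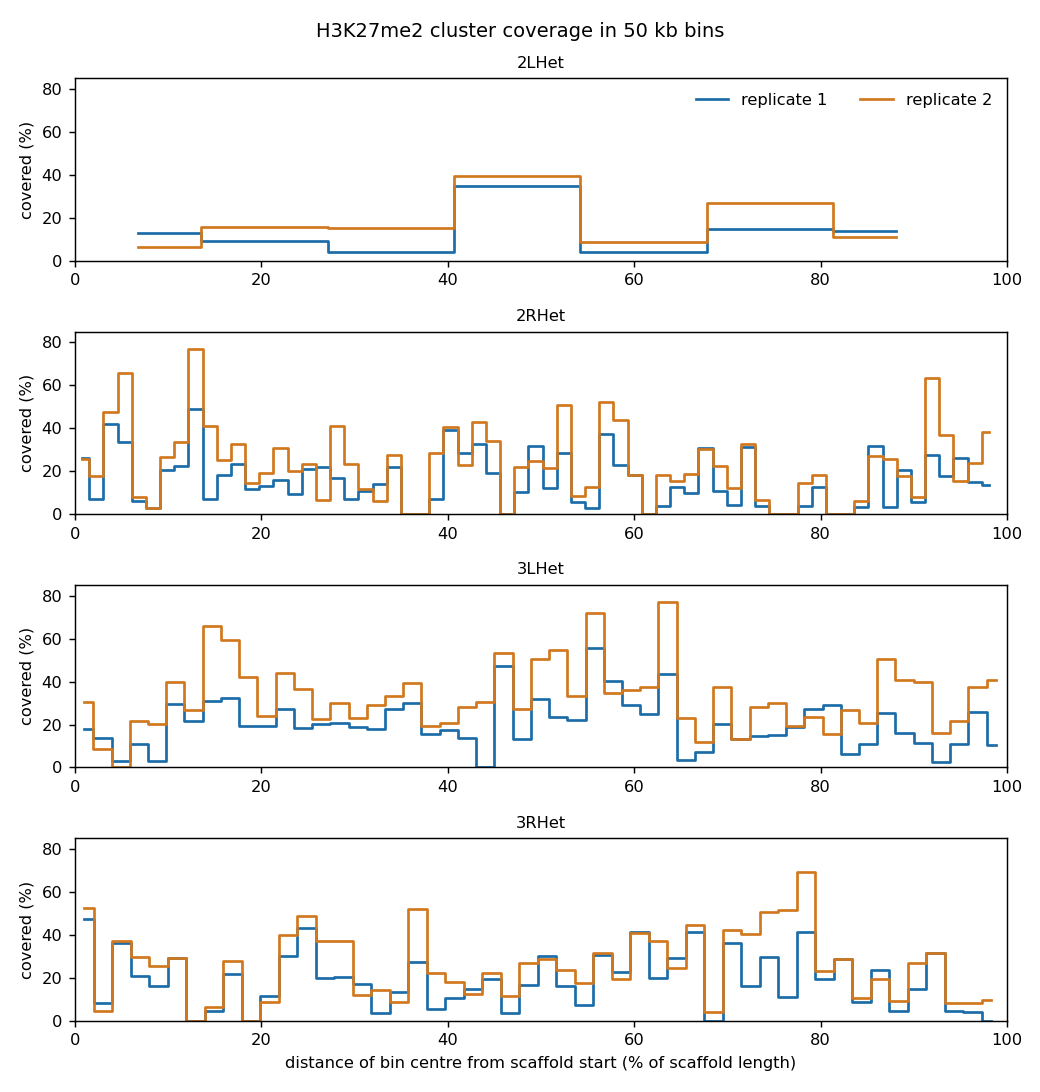
Share of each full 50 kb bin covered by clusters (%) against the distance of the bin centre from the scaffold start (% of scaffold length), one panel per scaffold, with replicate 1 in blue and replicate 2 in orange. Replicate 2 lies above replicate 1 in 133 of 173 bins, and 8 bins of 2RHet are at 0% in both.

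Stretches free of clusters in all 3 lists added up to 64.8% of the scaffolds. By scaffold the free share was 58.6% for 3LHet, 64.9% for 3RHet, 68.4% for 2RHet and 74.4% for 2LHet. Of 949 such stretches, with a median of 2.74 kb, 54 reached 20 kb and 9 reached 50 kb. 2RHet held the longest 3, at 2448440 to 2574653 (126.2 kb), 2642392 to 2768524 (126.1 kb) and 1143097 to 1256666 (113.6 kb). Those of 3RHet were 436043 to 525445 (89.4 kb), 2356852 to 2437379 (80.5 kb) and 299221 to 372483 (73.3 kb). Those of 2LHet were 61874 to 128118 (66.2 kb), 1 to 40438 (40.4 kb) and 208714 to 237655 (28.9 kb). 3LHet had none of 50 kb, and its longest were 2327972 to 2376338 (48.4 kb), 116923 to 155518 (38.6 kb) and 2160909 to 2194689 (33.8 kb). How much of these stretches reads could be assigned to was not tested.

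Neighbouring clusters stood farther apart on the scaffolds than on the arms. The median gap was 6.41 kb in replicate 1, 3.45 kb in replicate 2 and 3.17 kb in the combined list, against 1.74, 1.66 and 1.23 kb for the large arms. From the lower to the upper quartile, gaps on the scaffolds spanned 2.04 to 16.0 kb in replicate 1 and 1.20 to 9.41 kb in replicate 2. Gaps of at most 1 kb were 15.9% and 21.5% of the gaps on the scaffolds, against 35.9% and 37.4% on the large arms, a difference of -17.9 ± 2.91 percentage points (SD of differences, n = 2). The centromere-side Mb was closer, with median gaps of 4.25 kb in replicate 1 and 2.49 kb in replicate 2. Its share of gaps of at most 1 kb was 17.4% and 28.7%. From that share the scaffolds differed by -1.43 and -7.12 percentage points. Median gaps on 2RHet, 3LHet and 3RHet were 6.68, 6.34 and 6.04 kb in replicate 1 and 3.77, 2.98 and 3.81 kb in replicate 2. 2LHet had 12.4 kb over 13 gaps and 3.80 kb over 22.

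The typical cluster had nearly the same length in each list. Median lengths on the scaffolds were 2154 bp in replicate 1 and 2204 bp in replicate 2, on average 2179 ± 35.4 bp (SD, n = 2), and 2151 bp in the combined list. The lists did not share a lower limit, as the shortest scaffold clusters measured 1226, 1303 and 1001 bp. Clusters under 1.5 kb made up 12.7%, 13.5% and 22.0%. For the large arms the median lengths were 2467, 2276 and 2653 bp. The scaffolds thus differed from the arms by -313 bp in replicate 1 and -72 bp in replicate 2, an average of -192.5 ± 170 bp (SD of differences, n = 2), with one sign but an uneven size.

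Long clusters were scarcer on the scaffolds. Those of at least 5 kb numbered 50 in replicate 1 (8.79%), 95 in replicate 2 (12.3%), with 111 in the combined list (12.3%), where the large arms had 18.1%, 15.5% and 24.2%. The difference was -6.25 ± 4.39 percentage points (SD of differences, n = 2). In the centromere-side Mb the share was 10.5% in replicate 1 and 16.9% in replicate 2. The scaffolds differed from it by -1.73 and -4.58 percentage points. At least 10 kb was reached by 1, 13 and 15 clusters on the scaffolds. 2LHet had no cluster that long, its longest measuring 6370, 5572 and 6364 bp in replicate 1, replicate 2 and the combined list.

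The longest cluster of the combined list was 3LHet 1592530 to 1607288, which spanned 14.8 kb with a score of 1.02 and was covered to 87.7% by replicate 1 and 87.8% by replicate 2. The second, 3RHet 1662630 to 1677097, spanned 14.5 kb with a score of 1.17 and was covered to 93.6% and 93.8%. A short way before it lay the third, 3RHet 1640062 to 1654489, of 14.4 kb and score 1.50, covered to 98.8% and 97.5% by 1 cluster of each replicate. These 3 were mostly covered in both libraries, but not always by a single cluster. The first met 3 clusters of replicate 1 and 4 of replicate 2, and the second met 2 of each.

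The fourth and the fifth were covered more by replicate 2 than by replicate 1. 3LHet 2625 to 16866, close to the scaffold start, spanned 14.2 kb with a score of 0.78 and was covered to 63.4% by replicate 1 and 95.2% by replicate 2. 2RHet 3019257 to 3031906 spanned 12.7 kb with a score of 0.71 and was covered to 36.5% and 96.9%.

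Joining clusters with gaps up to 1 kb gave 479 domains in replicate 1 and 605 in replicate 2, with 686 in the combined list. Most of these, 404, 478 and 523, were single clusters. The largest number of clusters in a domain was 4, 6 and 5 on the scaffolds, against 15, 14 and 16 on the large arms.

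Broad domains were rare, and their number differed strongly between lists. At least 10 kb was reached by 9 domains in replicate 1 and 31 in replicate 2, with 42 in the combined list. Per Mb this was 1.03 and 3.55 in the replicates, against 11.1 and 10.1 for the large arms, a difference of -8.30 ± 2.46 (SD of differences, n = 2). Broad domains held 7.59% and 19.7% of domain bases on the scaffolds, against 46.2% and 44.0% on the large arms. The centromere-side Mb was closer, with 2.5 and 6 broad domains per Mb that held 11.3% and 21.9% of domain bases. Chromosome 4 had 0.74 per Mb in each replicate, holding 13.0% and 17.4%. Few broad domains were thus not particular to these scaffolds. Replicate 1 had 5 of its 9 on 3RHet and 2 each on 2RHet and 3LHet, while replicate 2 had 13 on 3LHet, 11 on 2RHet and 7 on 3RHet. 2LHet had 0 in every list. Domains of 20 kb or more numbered 0, 5 and 4 in replicate 1, replicate 2 and the combined list.

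On 2RHet the longest combined domain, 3019257 to 3049144, joined 4 clusters over 29.9 kb with scores from 0.48 to 0.80, and was covered to 32.4% by replicate 1 and 93.1% by replicate 2. Next came 1697930 to 1720733 (22.8 kb), covered to 52.8% and 87.8%, and 396227 to 414171 (17.9 kb), covered to 82.9% and 93.5%. Replicate 2 covered more of each than replicate 1 did.

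On 3LHet the domain 1400339 to 1423959 joined 5 clusters over 23.6 kb with scores from 0.46 to 1.61, and was covered to 79.9% by replicate 1 and 88.4% by replicate 2. It lies in the richest bin of the scaffold. The second, 1610250 to 1627297 (17.0 kb), was covered to 51.0% and 80.8%, and the third was the longest single cluster, at 1592530, described above.

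On 3RHet the domain 898339 to 919432 joined 3 clusters over 21.1 kb with scores from 0.77 to 1.20, and was covered to 55.3% by replicate 1 and 87.3% by replicate 2. Replicate 1 was ahead in the next ones, 1514355 to 1530734 (16.4 kb) with 95.0% against 72.5% in replicate 2, and 1261465 to 1276237 (14.8 kb) with 66.5% against 57.1%. 2LHet had shorter domains, 186790 to 194779 (7.99 kb) with 87.2% in replicate 1 and 86.4% in replicate 2, 310872 to 318530 (7.66 kb) with 66.9% and 49.9%, and 152842 to 159755 (6.91 kb) with 60.3% and 69.7%. Over these 12 domains the median covered share was 66.7% for replicate 1 and 86.8% for replicate 2, which was higher in 8 of 12.

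Taken by themselves, the replicates had their longest domain in the same place on 2LHet, at 186914 to 194765 in replicate 1 and 186213 to 194618 in replicate 2. On the other scaffolds the places differed. The longest of replicate 1 on 2RHet, 1298139 to 1311319 (13.2 kb), was covered to 100% by replicate 2. The longest of replicate 2 there, 1697249 to 1722447 (25.2 kb), was covered to 47.8% by replicate 1. On 3RHet replicate 2 had its longest at 1947056 to 1976885 (29.8 kb), of which replicate 1 covered 61.3%.

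Clusters scored higher on the scaffolds than on the arms. The score is the authors' own value for a cluster, read here as log2 and used within a list. Median scores were 0.94 in replicate 1 and 0.84 in replicate 2, with 0.70 in the combined list, against 0.67, 0.62 and 0.48 on the large arms. The difference of 0.27 in replicate 1 and 0.22 in replicate 2 averaged 0.24 ± 0.040 (log2 scale, SD of differences, n = 2), with the same sign in each. The top 10% of scores in a list took in 34.8% of scaffold clusters in replicate 1 and 49.4% in replicate 2, against 7.57% and 6.14% of clusters on the large arms. Scores of 1 or more were found for 44.6% and 21.7% of scaffold clusters, against 15.9% and 1.04% on the large arms.

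2LHet and 3RHet had the higher medians, 1.19 and 1.07 in replicate 1 and 0.93 and 0.88 in replicate 2. The medians of 3LHet were 0.93 in replicate 1 and 0.81 in replicate 2, and those of 2RHet were 0.86 and 0.82. The scaffold covered most was thus not the one with the highest scores. Compared with the centromere-side Mb, where medians were 0.72 and 0.71, the pooled scaffolds were higher by 0.23 and 0.13. Compared with XHet, which had 15 and 16 clusters with medians of 1.22 and 1.06, they differed by -0.27 and -0.23.

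Score rose with length, less closely on the scaffolds than on the arms. The Spearman coefficient between them was 0.591 in replicate 1 and 0.323 in replicate 2, with 0.350 in the combined list, against 0.737, 0.632 and 0.709 on the large arms, over clusters that share a library. Within each of 5 length classes, and in each of the 3 lists, scaffold clusters had the higher median. Their excess over the arms ran from 0.16 to 0.50 in replicate 1, from 0.17 to 0.23 in replicate 2 and from 0.21 to 0.30 in the combined list. At 2 to 3 kb the medians were 1.04 against 0.71 in replicate 1 and 0.87 against 0.64 in replicate 2.

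**Figure D3:**
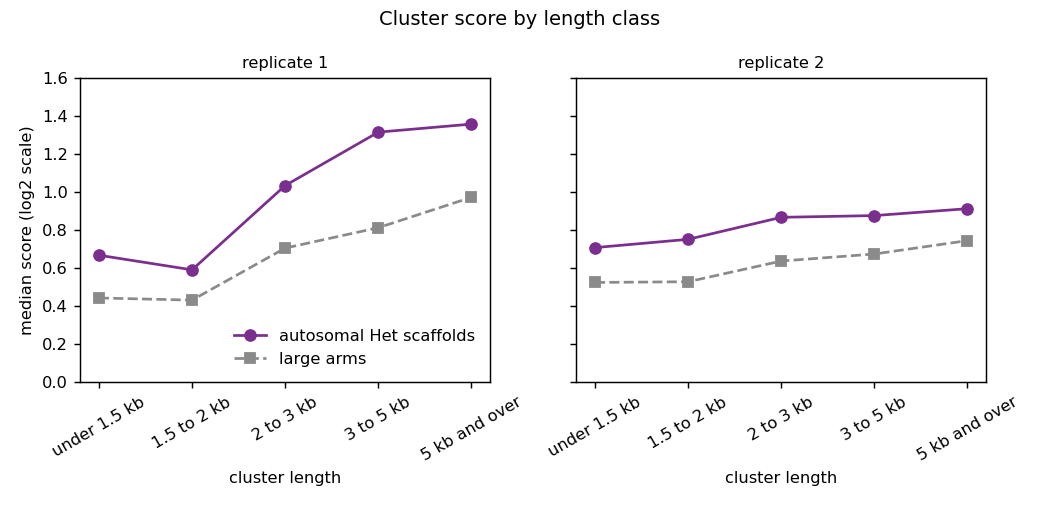
Median cluster score (log2 scale) in 5 classes of cluster length, for the autosomal Het scaffolds (circles) and the large arms (squares), one panel per replicate. The scaffolds lie above the arms in all 5 classes of both replicates, by 0.16 to 0.50 in replicate 1 and by 0.17 to 0.23 in replicate 2.

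The highest scores of the combined list belonged to short clusters that neither replicate held. These were 2RHet 540669 to 541760 (score 3.40), 2RHet 1995135 to 1996891 (3.23), and 2RHet 1585359 to 1586359, 2RHet 1789583 to 1790583 and 3RHet 1143277 to 1144277 (3.04 each). All 5 measured between 1001 and 1757 bp, had a score exactly equal to that of another cluster in the list, and had 0% of their bases in a cluster of either replicate. All but 2RHet 1995135 to 1996891 were shorter than the shortest scaffold cluster of replicate 1 (1226 bp) or replicate 2 (1303 bp). The combined list reached down to 1001 bp. The part of this unlike lower limit was not tested.

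The top scores of each replicate differed in how often they touched the other replicate. Replicate 1 peaked at 2RHet 897178 to 899328 with 4.20, which touched no cluster of replicate 2. Replicate 2 peaked at 2RHet 377038 to 378474 with 3.60, which touched neither replicate 1 nor the combined list. Among the 5 best-scored clusters of each replicate, 1 of replicate 1 and 4 of replicate 2 touched the other.

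Both replicates held 313 clusters with a reciprocal overlap of at least 50%, or 55.0% of those in replicate 1 and 40.6% of those in replicate 2. By the lower of the paired scores the first lay on 3LHet, as 663366 to 666526 (score 2.59) in replicate 1 and 663360 to 665336 (1.96) in replicate 2. Also on 3LHet were the second, 364330 to 366585 (1.71) and 364471 to 366302 (1.58), and the third, 515859 to 518012 (1.64) and 515560 to 517698 (1.52). The fourth, 2087065 to 2091752 (1.74) and 2087670 to 2090031 (1.52), and the fifth, 1292135 to 1294691 (1.49) and 1292995 to 1295016 (1.94), lay on 3RHet. None of the 5 fell in the 12 domains named above, and their lengths ran from 1832 to 4688 bp.

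By bases, the replicates had 1192 kb of the scaffolds in common. That is 77.0% of replicate 1 but 51.5% of replicate 2, which held a further 1121 kb, whereas replicate 1 held a further 356 kb. For the large arms the common part was 71.3% of replicate 1 and 82.1% of replicate 2. The Jaccard index (common bases over bases in either list) was 0.447 on the scaffolds, against 0.617 on the large arms. It was 0.504 for 3RHet, 0.433 for 3LHet, 0.427 for 2LHet and 0.416 for 2RHet. XHet had 0.433, U 0.343 and chromosome 4 0.330, so a value below that of the arms was not particular to these scaffolds. Sparser lists overlap less by their size alone, and no correction was made for this.

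Counted as clusters, 471 of 569 in replicate 1 met a cluster of replicate 2 (82.8%, 95% Wilson interval 79.5 to 85.7). In the other direction it was 448 of 770 (58.2%, 54.7 to 61.6). These intervals cover only the number of clusters, taken as independent. The large arms had the reverse order, 76.9% for replicate 1 and 87.7% for replicate 2. On single scaffolds the share went from 71.4% (2LHet) to 86.1% (3RHet) in replicate 1 and from 52.2% (2LHet) to 61.6% (3RHet) in replicate 2. Such shares move with the coverage of the list that is met, here 26.5% for replicate 2 and 17.7% for replicate 1.

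Longer clusters were more often held by both. In replicate 1 the share with a partner was 63.9% below 1.5 kb, 76.6% from 1.5 to 2 kb, 86.8% from 2 to 3 kb, 92.2% from 3 to 5 kb and 98.0% above that. The same classes of replicate 2 had 32.7%, 35.8%, 62.0%, 75.3% and 96.8%. Compared with the large arms, scaffold clusters of replicate 2 differed by -45.1 percentage points at 1.5 to 2 kb but by -2.69 at 5 kb and over. The distance from the arms was smallest in the longest class. A longer cluster is more likely to share a base with another list by its length alone, and no correction was made for this.

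**Figure D4:**
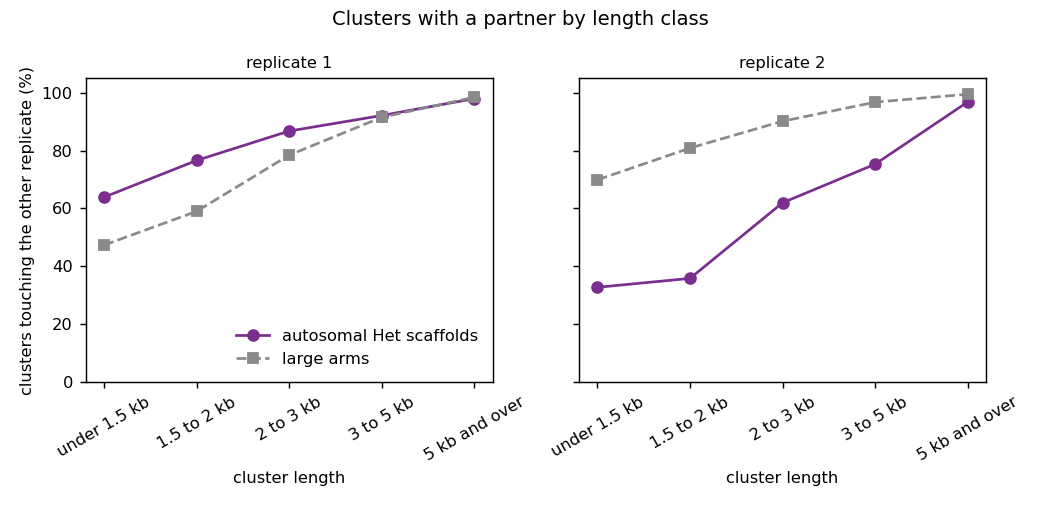
Share of clusters that touch a cluster of the other replicate (%) in 5 classes of cluster length, for the autosomal Het scaffolds (circles) and the large arms (squares), one panel per replicate. In replicate 2 the scaffolds climb with length to 96.8%, close to the 99.5% of the arms, while in replicate 1 they lie above the arms in the 4 classes under 5 kb. Touching takes a shared base, which longer clusters reach more easily.

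A high score did not go with being held in replicate 1. Its 98 scaffold clusters without a partner had a median score of 1.28, against 0.90 for the 471 with one, although they were shorter (1835 against 2318 bp). Each scaffold showed this direction, with 1.41 against 1.11 on 2LHet, 1.10 against 0.84 on 2RHet, 1.63 against 0.84 on 3LHet and 1.26 against 1.06 on 3RHet. For the large arms the partnerless clusters of replicate 1 scored lower, 0.51 against 0.74. The direction was not particular to the autosomal Het scaffolds. In replicate 1 it was also seen on U, with 1.48 for 176 partnerless clusters against 1.17 for 216 others. Chromosome 4 had 0.71 for 11 against 0.59 for 23, and XHet 1.22 for 5 against 1.18 for 10. Replicate 2 went the other way on the scaffolds, where its 322 partnerless clusters scored lower, 0.77 against 0.89 for the 448 others.

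Splitting the scaffold clusters of replicate 1 into 4 equal classes by score, a partner was found for 84.6%, 91.5%, 87.3% and 67.6% from the lowest class to the highest. The highest class was the one least held. In replicate 2 the shares were 33.7%, 54.7%, 67.2% and 77.2%, higher in each class, and on the large arms the highest class of replicate 1 had 95.9%. Exactly equal scores were found for 60.2% of partnerless and 41.6% of partnered clusters in replicate 1, and for 64.0% and 34.8% in replicate 2. On 3LHet the shares in replicate 1 were 40.7% and 41.5%. Their part in the result was not tested.

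Where the replicates each had a cluster, that of replicate 2 was more often the longer. Among 417 pairs that were each other's best match, 260 were longer in replicate 2 (62.4%), with medians of 2359 bp in replicate 1 and 2966 bp in replicate 2. By scaffold this share was 69.0% on 3LHet, 62.0% on 2RHet, 56.2% on 3RHet and 50.0% on 2LHet, while the pairs of the large arms had 37.6%. Paired starts were a median of 377 bp apart, and paired ends 309 bp. Paired scores were related (Spearman 0.657, Pearson 0.672), and paired lengths less so (Spearman 0.414), over pairs from the same libraries. Neighbours within 1 kb of each other in a replicate were only weakly alike in score (Spearman 0.317 in each replicate).

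The combined list took in the replicates unequally. Each of the 569 clusters of replicate 1 on the scaffolds met a combined cluster, while 108 of 770 in replicate 2 (14.0%) met none. By scaffold the missing clusters of replicate 2 were 45 of 273 on 3LHet, 35 of 255 on 2RHet, 23 of 219 on 3RHet and 5 of 23 on 2LHet. The large arms missed 0.817% of replicate 1 and 2.59% of replicate 2. Other sequences were also unequal. U missed 0.765% of replicate 1 and 13.3% of replicate 2, chromosome 4 missed 0% and 29.8% (14 of 47), and XHet 0% and 6.25% (1 of 16).

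Of the 899 combined clusters, 425 (47.3%) met both replicates, 233 (25.9%) met replicate 2 only, 88 (9.79%) met replicate 1 only and 153 (17.0%) met neither. The same shares of the large arms were 58.7%, 9.40%, 19.5% and 12.4%. Clusters that met both were long, with medians of 3425 bp in length and 0.82 in score. The medians were 1670 bp and 0.51 with replicate 2 only, and 1996 bp and 0.87 with replicate 1 only. Those that met neither had medians of 1314 bp and 0.78, and 64.1% of them had a score equal to that of another cluster, against 16.0% of those that met both. No correction was made for length, which eases meeting another list, or for the shorter clusters that only the combined list holds.

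By bases, 15.4% of the combined list on the scaffolds lay outside both replicates, against 9.21% on the large arms. This share ran from 12.9% on 3LHet to 21.9% on 2LHet. How this list was made is stated neither in the labels nor in the headers.

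**Figure D5:**
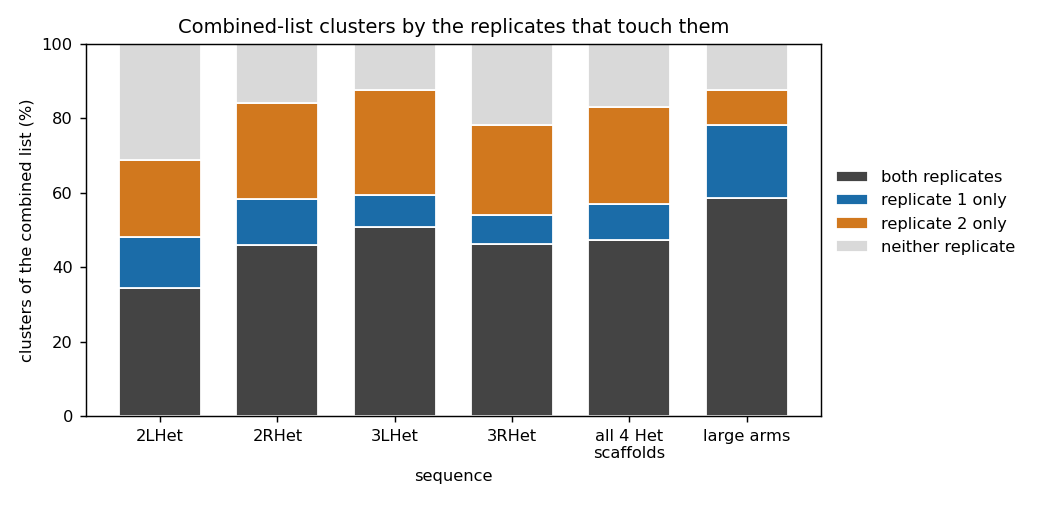
Clusters of the combined list (%) by the replicates that touch them, stacked for each Het scaffold, the 4 scaffolds together and the large arms. Clusters touched by replicate 2 alone make up 25.9% on the scaffolds and 9.40% on the large arms, and those touched by replicate 1 alone 9.79% and 19.5%.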

How the data were processed

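H3K27me2 ChIP-seq of 2 ChIP samples was analysed, each represented by the list of regions that the authors deposited, together with their combined list. Alignment used Bowtie 0.12.7 per the submitters' processing notes, and positions refer to FlyBase release 5 per the file headers. Nothing in the labels or headers gives the region caller, its thresholds, the use of input or the treatment of reads with several matches. The score deposited by the authors was taken as log2 from its values: in replicate 1, replicate 2 and the combined list, 398, 78 and 246 pairs of distinct scores differed by exactly 1 (within 1e-09), and 0 pairs by a natural-log or log10 doubling. Its baseline is unknown. The authors' scores served only to describe and rank clusters.

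Work was done in Python 3.11.15 (numpy 2.4.6, pandas 2.3.3, scipy 1.17.1, matplotlib 3.10.9). Depleted regions were dropped. A cluster of 3RHet that passed the scaffold end by 388 bases in replicate 1 and 374 in the combined list was trimmed. Gaps up to 1 kb were joined, bins were 50 kb, and a shared base made clusters touch. The interval code matched base-by-base counting on 20 of 20 simulated lists.

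Named regions are the 3 longest combined domains, the 3 longest free stretches and the richest and poorest bins of each scaffold, and over all scaffolds the 5 longest, 5 best-scored and 5 best shared clusters. For 2RHet and 3RHet several bins tie at 0% and are given as a count. The bin with the largest disagreement and the top clusters and domains of single replicates were picked after seeing their values. The members and comparisons were chosen with earlier results of these data known. Alternatives used each replicate alone, the combined list, minimum lengths and scores, other gaps, other denominators and other overlap rules.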

Additional observations from a re-analysis of the deposited data

How the results depend on the processing

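Of 45 alternative values, 8 leave out a replicate and are judged by the spread of the 2 replicates, within which they must fall, so they say nothing of stability. Of the other 37, 21 stayed within the replicate spread, counting interval or 1.5-fold range set for them and 16 moved beyond it. Only the 15 alternatives of a difference could change sign, and 0 did. Leaving out a replicate gave 17.7% to 26.5% for coverage, -25.9 to -11.4 percentage points for the difference from the arms, 569 to 770 clusters, 2154 to 2204 bp for median length, 0.22 to 0.27 for the score difference and 9 to 31 broad domains. The 9 are without replicate 2 and the 31 without replicate 1, against a mean of 20. The combined list gave 30.2% coverage and 42 broad domains, and joining gaps up to 2 kb gave 40. Keeping clusters of at least 2 kb gave 394 clusters instead of 669.5, as shorter ones are dropped. It also gave a Jaccard index of 0.405 and 79.4% of replicate 1 clusters with a partner. A minimum of 1500 bp gave a median length of 2412 bp, as it removes the shortest clusters. Keeping scores at or above the list median gave a difference from the arms of -7.77 percentage points, a median length of 2490.5 bp and a Jaccard index of 0.393. That threshold keeps 70.3% and 87.3% of scaffold clusters, against 48.1% and 46.7% on the arms. Joined domains gave a Jaccard index of 0.452, and leaving out tied scores a score difference of 0.30. A reciprocal overlap of 50% lowered the partner share to 55.0%, and counting from replicate 2 gave 58.2%. Where no construction is named, the cause was not tested. No paired analysis was possible because, between ChIP and input, the groups that share replicate numbers, input has no list here; differences between sequences were already taken within each replicate. Without read numbers, the limits set by depth are unknown.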
